A study of Mus musculus with 12 samples.

Results

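The Bcl2 family decides whether a cell keeps its mitochondria intact or dies by apoptosis, and 10 of its genes were followed here in mouse B-cell precursors that lack 1 copy of Pax5, alone or together with 1 copy of Cd72. The members were Bcl2, Bcl2l1, Mcl1, Bcl2l11, Bbc3, Pmaip1, Bax, Bak1, Bid and Bmf. They were chosen by gene symbol, and where several transcript clusters (probe sets that together report a gene) carry the symbol the one with the highest mean stands for the gene. Of the 10, 9 had a cluster, 1 each, among the 19938 genes that the array's annotation names singly. Bax, a pore-forming effector, had no cluster under its symbol and was not analysed here.

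Proteins of this family share short homology regions and bind one another on the outer mitochondrial membrane. Guardians such as Bcl2, Bcl2l1 (Bcl-xL) and Mcl1 hold the effectors Bax and Bak1 in check, while proteins with only the third homology region (BH3-only), among them Bcl2l11 (Bim), Bbc3 (Puma), Pmaip1 (Noxa), Bid and Bmf, bind the guardians or push the effectors to open the membrane. In early B-cell development, interleukin-7 signals keep precursors alive largely through guardians, and Bim removes cells that lose those signals or fail to build a receptor.

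RNA came from pro-B cells of the bone marrow, taken at an age of 1 month from mice under specific pathogen-free housing, and 12 Affymetrix arrays formed 3 groups of 4. The groups were wild type (WT), Pax5+/- mice, which keep 1 intact copy of the B-lineage transcription factor Pax5, and Cd72+/-;Pax5+/- mice, which also lack 1 copy of Cd72, a B-cell co-receptor that restrains signalling. Every sample carries the tissue label of bone-marrow pro-B cells, but the cell type is labelled pro-B cells in WT and preleukemic precursor B-cells in both heterozygous groups, so the stage may not be the same. How the alleles were made is not given in the sources used here. The labels do not say whether each array stands for its own animal, so p-values measure only how far these arrays spread, and that spread may be technical. All values are log2 signals as deposited, where a difference of 1 is 2-fold, and each member's signal is compared only with itself across arrays. RNA was taken from whole samples, so a change in the mix of cells and a change per cell cannot be told apart.

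The promoter sequence of 3 members is shown because Bcl2 and Bcl2l11 were high on the same WT arrays and Bmf was low on them. Each is the 250 bases before a RefSeq start in assembly GRCm38.p6, read in the direction of the gene, with motif matches in capitals. Only a window lying wholly before the gene is shown, and Bcl2l11 and Bmf have further starts. Bcl2 lies on the minus strand (chr1:106714291-106714540), Bcl2l11 on the plus strand (chr2:128125788-128126037) and Bmf on the minus strand (chr2:118549687-118549936).
Bcl2: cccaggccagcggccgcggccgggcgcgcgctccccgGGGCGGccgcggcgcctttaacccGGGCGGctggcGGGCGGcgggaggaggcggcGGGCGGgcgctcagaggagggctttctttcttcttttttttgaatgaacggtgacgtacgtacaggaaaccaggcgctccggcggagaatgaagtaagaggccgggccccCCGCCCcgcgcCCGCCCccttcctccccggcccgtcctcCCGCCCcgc
Bcl2l11: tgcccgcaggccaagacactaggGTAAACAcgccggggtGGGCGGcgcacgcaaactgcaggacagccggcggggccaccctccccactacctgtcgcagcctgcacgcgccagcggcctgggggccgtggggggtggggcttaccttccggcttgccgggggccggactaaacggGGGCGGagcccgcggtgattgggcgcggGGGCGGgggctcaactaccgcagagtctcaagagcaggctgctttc
Bmf: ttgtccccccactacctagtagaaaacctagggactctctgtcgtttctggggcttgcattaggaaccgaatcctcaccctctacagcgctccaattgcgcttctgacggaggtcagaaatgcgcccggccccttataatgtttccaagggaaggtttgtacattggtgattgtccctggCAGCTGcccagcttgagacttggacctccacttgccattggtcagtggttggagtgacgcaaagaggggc

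Both strands were searched for GGGCGG (the GC box), GTAAACA (a forkhead motif), TTCNNNGAA (a STAT motif), an EBF motif, CACGTG (a Myc E-box) and CAGCTG (an E2A E-box). The Bcl2 window held 7 GC boxes and the Bcl2l11 window 3, a motif found in 32.7% of the 32851 RefSeq windows of that length. Bcl2l11 also held 1 forkhead match, 227 bases before its start, as did 3.17% of all windows. The window at the other Bcl2l11 start held 2 GC boxes and no forkhead match. The Bmf window held 1 E2A E-box, as did 13% of windows, and the windows at its other starts held 1 and 2. The STAT, EBF and Myc motifs, found in 7.02%, 0.779% and 6.02% of windows, had no match in these 3, and no matches overlapped. GC content was 74.8% for Bcl2, 72% for Bcl2l11 and 54% for Bmf. Bak1 and Bid were also high on WT replicates 2 and 4, Bcl2l1 and Mcl1 were also low on them, and the windows of these genes are not shown. The Bak1 window, wholly before the gene, matched none of the motifs, at 58.4% GC. The Bid window, not wholly before the gene, held 3 GC boxes, at 63.6% GC. None of the Bcl2l1 and Mcl1 windows lay wholly before the gene. Those of Bcl2l1 matched none of the motifs, and that of Mcl1 held 1 GC box, at 64.4% GC. Matches describe letters only, and binding was not measured.

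The arrays of a group were not equally alike, which touches every value below. Over all tested clusters the differences between WT replicates 1 and 3 had an SD of 0.109 and those between replicates 2 and 4 an SD of 0.117, while the other WT pairs gave 0.27 to 0.28. Pax5+/- replicates paired the same way (0.177 and 0.122 within, 0.195 to 0.281 across), and Cd72+/-;Pax5+/- replicates paired as 1 with 2 and 3 with 4 (0.117 and 0.125 within, 0.128 to 0.183 across). Results are therefore also given with each closest pair averaged to 1 unit. Pax5 ranged over 11.40 to 11.72 (WT), 10.65 to 11.21 (Pax5+/-) and 11.11 to 11.31 (Cd72+/-;Pax5+/-), and Cd72 read 8.43 to 9.39, 10.03 to 10.27 and 7.34 to 7.67. Whether these probes lie in the deleted parts is not given in the sources used here. The X-inactivation transcript Xist lay at 11.75 or above on every Cd72+/-;Pax5+/- array and at most at 5.52 elsewhere, so in comparisons with that group sex and genotype cannot be told apart.

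**Figure D1:**
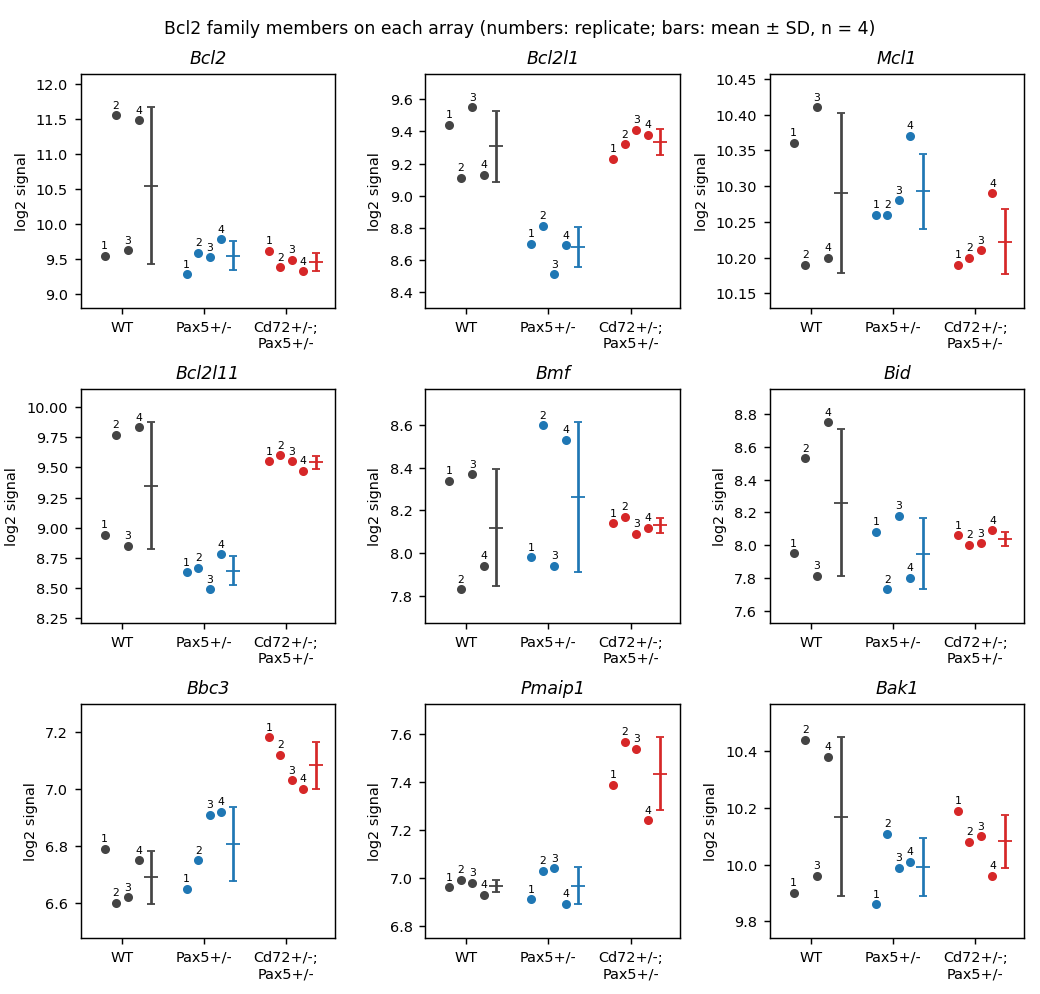
Log2 signal of the 9 measured members on all 12 arrays (points, numbered by replicate), with the mean ± SD of 4 arrays beside each group; each panel has its own y axis. Bcl2 was near 11.5 on WT replicates 2 and 4 and between 9.28 and 9.78 on the other 10 arrays, whereas Bcl2l1 was lowest on the 4 Pax5+/- arrays and Bbc3 and Pmaip1 were highest on the 4 Cd72+/-;Pax5+/- arrays.

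Bcl2, the founding guardian of the family, was split within WT rather than between genotypes. It read 9.54, 11.55, 9.62 and 11.48 in WT replicates 1 to 4, 9.28, 9.59, 9.52 and 9.78 in Pax5+/-, and 9.61, 9.38, 9.49 and 9.32 in Cd72+/-;Pax5+/-. WT replicates 2 and 4 stood above all other arrays, and WT replicates 1 and 3 lay within the range of the Pax5+/- arrays. WT averaged 10.55 ± 1.12, Pax5+/- 9.54 ± 0.207 and Cd72+/-;Pax5+/- 9.45 ± 0.128 (SD, n = 4). The difference from WT was -1.005 in Pax5+/- (95% interval -1.88 to -0.13, limma adjusted p = 0.192) and -1.10 in Cd72+/-;Pax5+/- (-1.97 to -0.23, adjusted p = 0.137), and neither passed. Between the heterozygous groups it was -0.09 (95% interval -0.96 to 0.78, limma adjusted p = 0.934). Bcl2 nevertheless met the study's stated threshold, counted here as an unadjusted p under 0.05 with a change over 2-fold, in both comparisons with WT, as did 0.957% and 0.914% of clusters. An exact two-sided permutation test of its 4 against 4 arrays gave p = 0.171 and 0.0571.

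The size of the Bcl2 difference depended on the WT arrays used. Its mean was 9.58 over WT replicates 1 and 3 and 11.515 over replicates 2 and 4, a gap of 1.935 that ranked 7 among the 23410 tested clusters for the difference between those pairs, where 192 clusters (0.82%) differed by over 2-fold. With WT replicate 1 left out both differences from WT passed (limma adjusted p = 0.0455 in Pax5+/- and 0.0391 in Cd72+/-;Pax5+/-), and with WT replicate 3 left out that in Cd72+/-;Pax5+/- passed (adjusted p = 0.0479). Against WT replicates 1 and 3 alone the differences were -0.04 in Pax5+/- and -0.13 in Cd72+/-;Pax5+/-, and against WT replicates 2 and 4 alone -1.97 and -2.065. These pairs were set apart with the Bcl2 values in view, so these differences are a description with no test.

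Bcl2l1, which encodes the guardian Bcl-xL, was low in Pax5+/- alone. It read 9.44, 9.11, 9.55 and 9.13 in WT replicates 1 to 4, 8.70, 8.81, 8.51 and 8.69 in Pax5+/-, and 9.23, 9.32, 9.41 and 9.38 in Cd72+/-;Pax5+/-. All 4 Pax5+/- arrays lay below all 8 others, while WT and Cd72+/-;Pax5+/- overlapped. Bcl2l1 fell by 0.63 against WT, 1.55-fold (SE 0.0989, limma adjusted p = 0.00125), and was higher by 0.66 in Cd72+/-;Pax5+/- than in Pax5+/-, 1.58-fold (SE 0.0989, adjusted p = 0.000757). These comparisons share the Pax5+/- arrays. Against WT, Cd72+/-;Pax5+/- differed by 0.03 (95% interval -0.19 to 0.24, adjusted p = 0.935). Leaving out any single array kept both calls, and averaging the closest pairs ended them (adjusted p = 0.177 and 0.129).

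Mcl1, a short-lived guardian that early lymphocytes depend on, varied little. It read 10.36, 10.19, 10.41 and 10.20 in WT, 10.26, 10.26, 10.28 and 10.37 in Pax5+/-, and 10.19, 10.20, 10.21 and 10.29 in Cd72+/-;Pax5+/-. All 3 groups overlapped. The 95% intervals of its differences were -0.12 to 0.13 for Pax5+/- against WT, -0.19 to 0.06 for Cd72+/-;Pax5+/- against WT and -0.19 to 0.05 between the heterozygous groups, and limma adjusted p was 0.546 to 0.991.

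Bcl2l11, the BH3-only gene for Bim, had its lowest values in Pax5+/- as well. It read 8.94, 9.77, 8.85 and 9.83 in WT replicates 1 to 4, 8.63, 8.67, 8.49 and 8.78 in Pax5+/-, and 9.55, 9.60, 9.55 and 9.47 in Cd72+/-;Pax5+/-. The 4 Pax5+/- arrays lay below all others, and WT was split around the Cd72+/-;Pax5+/- arrays, with replicates 1 and 3 below and 2 and 4 above them. Bcl2l11 was 0.90 higher in Cd72+/-;Pax5+/- than in Pax5+/-, 1.87-fold (SE 0.192, limma adjusted p = 0.00922), and this call held without any single array. Averaging the closest pairs ended it (adjusted p = 0.323). It fell by 0.705 in Pax5+/- against WT, 1.63-fold (SE 0.192, adjusted p = 0.0432). That call was lost without any 1 of the 4 Pax5+/- arrays, without WT replicate 2 or 4 (adjusted p up to 0.124), and with the closest pairs averaged (adjusted p = 0.585). Cd72+/-;Pax5+/- differed from WT by 0.195 (95% interval -0.22 to 0.61, adjusted p = 0.678). Against WT replicates 1 and 3 alone that difference was 0.65, and against replicates 2 and 4 alone it was -0.26, given without a test for the same reason.

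**Figure D2:**
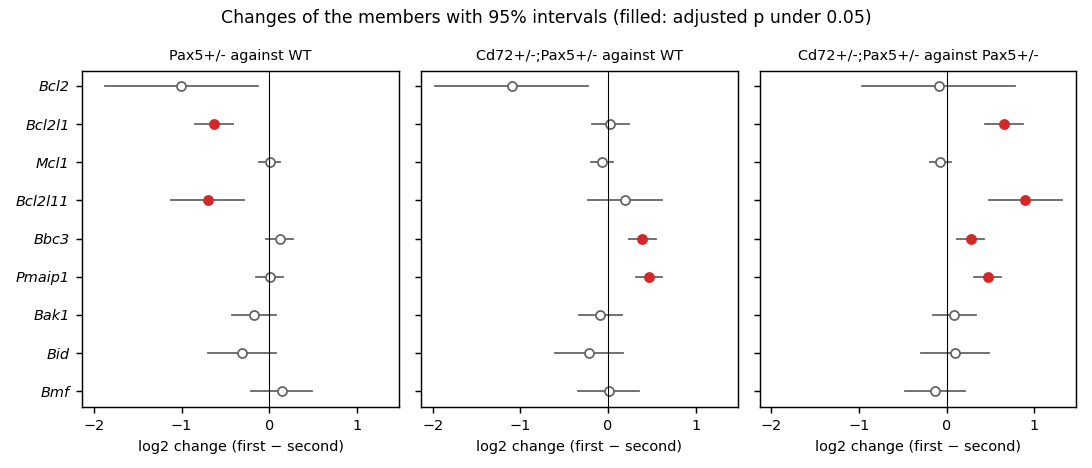
Log2 change of each member (x axis, first group minus second) with its 95% interval in the 3 comparisons; filled points passed at a limma adjusted p under 0.05. Bcl2 had the widest intervals, Bcl2l1 and Bcl2l11 were filled in the comparisons that include Pax5+/-, and Bbc3 and Pmaip1 in those that include Cd72+/-;Pax5+/-.

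Bbc3 and Pmaip1 encode Puma and Noxa, BH3-only proteins induced by p53 among other signals, and both were highest in Cd72+/-;Pax5+/-. Pmaip1 read 6.96, 6.99, 6.98 and 6.93 in WT, 6.91, 7.03, 7.04 and 6.89 in Pax5+/-, and 7.39, 7.57, 7.54 and 7.24 in Cd72+/-;Pax5+/-. Its 4 Cd72+/-;Pax5+/- arrays lay above the other 8, which overlapped one another. Pmaip1 rose by 0.47 against WT, 1.39-fold (SE 0.0694, limma adjusted p = 0.000827), and was higher by 0.47 than in Pax5+/- (adjusted p = 0.000681). It was the only member whose calls held with the closest pairs averaged (adjusted p = 0.0385 and 0.0329), and no single array ended them. In Pax5+/- it differed from WT by 0.0025 (95% interval -0.15 to 0.15, adjusted p = 0.991).

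Bbc3 read 6.79, 6.60, 6.62 and 6.75 in WT, 6.65, 6.75, 6.91 and 6.92 in Pax5+/-, and 7.18, 7.12, 7.03 and 7.00 in Cd72+/-;Pax5+/-. The Cd72+/-;Pax5+/- arrays were again the 4 highest, the lowest of them at 7.00 beside a highest Pax5+/- value of 6.92. Bbc3 rose by 0.39 against WT, 1.31-fold (SE 0.0718, limma adjusted p = 0.00415). It was higher by 0.275 than in Pax5+/-, 1.21-fold (adjusted p = 0.029). The call against WT held without any single array, but not once closest pairs were averaged (adjusted p = 0.0958). The call against Pax5+/- was lost without Pax5+/- replicate 1 or 2 or Cd72+/-;Pax5+/- replicate 1, 2 or 3 (adjusted p up to 0.0904), and with the closest pairs averaged (adjusted p = 0.20). The mean signals of Bbc3 and Pmaip1 lie below the median of tested clusters, so a filter at that median removes both.

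Bmf and Bid passed in no comparison, and their arrays divided inside the groups. Bmf, a BH3-only protein released from the cytoskeleton under stress, read 8.34, 7.83, 8.37 and 7.94 in WT replicates 1 to 4, 7.98, 8.60, 7.94 and 8.53 in Pax5+/-, and 8.14, 8.17, 8.09 and 8.12 in Cd72+/-;Pax5+/-. It was low in WT replicates 2 and 4 and high in Pax5+/- replicates 2 and 4, and the Cd72+/-;Pax5+/- arrays lay between these. Bid, which caspase-8 cleaves to link death receptors to mitochondria, read 7.95, 8.53, 7.81 and 8.75 in WT, 8.08, 7.73, 8.18 and 7.80 in Pax5+/-, and 8.06, 8.00, 8.01 and 8.09 in Cd72+/-;Pax5+/-. Its division ran the other way, high in WT replicates 2 and 4 and low in Pax5+/- replicates 2 and 4. The differences were at most 0.14 in size for Bmf (limma adjusted p = 0.709 to 0.988) and -0.31, -0.22 and 0.09 for Bid (adjusted p = 0.416 to 0.832). The 95% intervals reach from -0.48 to 0.49 for Bmf and from -0.70 to 0.48 for Bid over the 3 comparisons. Leaving out single arrays moved the Bid difference of Pax5+/- from WT between -0.46 and -0.15. Against WT replicates 2 and 4 alone Bid differed by -0.69 in Pax5+/- and -0.60 in Cd72+/-;Pax5+/-. Against replicates 1 and 3 alone the differences were 0.07 and 0.16. Those pairs were set apart with the values in view, so these differences are a description with no test.

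Bak1, the measured effector, which opens pores in the outer membrane, also passed in none. It read 9.90, 10.44, 9.96 and 10.38 in WT replicates 1 to 4, 9.86, 10.11, 9.99 and 10.01 in Pax5+/-, and 10.19, 10.08, 10.10 and 9.96 in Cd72+/-;Pax5+/-. WT replicates 2 and 4 were above all other arrays, as they were for Bcl2, Bcl2l11 and Bid. Its differences were -0.18, -0.09 and 0.09 (limma adjusted p = 0.491, 0.778 and 0.726), with 95% intervals from -0.43 to 0.34. Leaving out single arrays moved its difference of Pax5+/- from WT between -0.27 and -0.09. Against WT replicates 2 and 4 alone Bak1 differed by -0.42 in Pax5+/- and -0.33 in Cd72+/-;Pax5+/-. Against replicates 1 and 3 alone the differences were 0.06 and 0.15. As for Bcl2, those pairs were set apart after the values were known, so these differences are a description with no test.

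**Figure D3:**
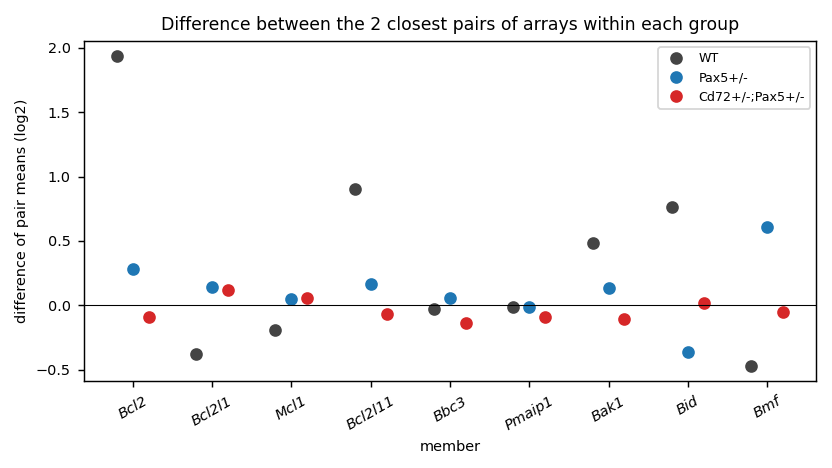
Difference between the means of the closest pairs of arrays within each group (y axis, log2; in WT and Pax5+/- replicates 2 and 4 minus 1 and 3, in Cd72+/-;Pax5+/- replicates 3 and 4 minus 1 and 2) for each member. WT reached 1.935 for Bcl2 and 0.905 for Bcl2l11, Pax5+/- reached 0.605 for Bmf, and no Cd72+/-;Pax5+/- difference exceeded 0.135 in size.

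Counted over the 9 measured members, 2 fell and none rose in Pax5+/- against WT, where 7.47% of all tested clusters were called and 3.2% were lower. In Cd72+/-;Pax5+/- against WT 2 rose and none fell, against 7.78% of clusters, 4.12% as higher. Between the heterozygous groups 4 were higher in Cd72+/-;Pax5+/- and none lower, against 9.79% of clusters, 4.44% as higher. The members with groups that do not overlap were the same as those called, against 10.7%, 14.8% and 18.5% of all clusters in the order above, or 4.87%, 7.61% and 9.59% in the members' direction. The median absolute change of the members was 0.18, 0.195 and 0.13, beside 0.0675, 0.07 and 0.075 for all clusters. With the closest pairs averaged, 0, 1 and 1 members were called in the same order, and 282, 290 and 420 clusters. The comparisons with WT share the WT arrays, and the first and last share the Pax5+/- arrays.

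For each member called at least once, the genes with the most similar profile over the 12 arrays were taken as those with the smallest root mean square distance between profiles centred on their own mean. For Bcl2l1 these were Il10ra, a subunit of the interleukin-10 receptor, at a distance of 0.0724, then Lat, an adaptor of lymphocyte receptor signalling, Arhgef3 and Cecr2. All 4 read lower on every Pax5+/- array than on any other, a pattern that the choice by profile favours. For Bcl2l11 they were Aldh18a1, an enzyme of proline synthesis, at 0.109, Igfbp4, Fgd2 and Fkbp5, a co-chaperone of steroid receptors. For Bbc3 they were Gng2, Hoxb6, Plppr3 and Ier5, at 0.0682 to 0.0825, and for Pmaip1 the microRNA gene Mir16-1, Cyren, Chst10 and Slc8a1, at 0.0999 to 0.106. The profile of Bcl2 was added after its values were seen. Its nearest genes were Tubb3, a tubulin, Cndp2, a dipeptidase, Lrrc32 and Mc1r, at 0.243 to 0.299. Each was highest on WT replicates 2 and 4, which the choice by profile likewise favours. A flat gene would lie at 0.758 from Bcl2 and at 0.331 from Bcl2l1.

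Of 23 measured upstream survival and death genes, 6 differed by over 0.5 between the means of the WT pairs, against 6.7% of all tested clusters. They were Il7r, Pim1, Pim2, Myc, Bcl6 and Myb, while others such as Stat5b (0.005), Foxo3 (-0.005), Mdm2 (-0.045) and Gsk3b (0.095) hardly differed. The count and the genes described next, with Cflar from the caspase list, were picked with the values in view. Il7r, the interleukin-7 receptor chain, read 12.47, 11.12, 12.44 and 11.07 in WT replicates 1 to 4, against 12.48 to 12.58 in Pax5+/- and 12.20 to 12.24 in Cd72+/-;Pax5+/-. WT replicates 2 and 4 were thus the lowest 2 arrays for Il7r and the highest 2 for Bcl2. Myc read 10.10, 11.86, 10.12 and 11.83 in WT, with the Pax5+/- arrays (10.81 to 11.03) and the Cd72+/-;Pax5+/- arrays (11.21 to 11.27) between those extremes. Pim1, a survival kinase downstream of cytokine receptors, read 10.95, 12.03, 10.85 and 12.04, and Pim2 8.12, 8.76, 8.07 and 8.55. Bcl6, a repressor that protects precursors during receptor selection, went the other way, at 7.60, 6.25, 7.64 and 6.39. Cflar, an inhibitor of caspase-8, read 8.90, 8.37, 8.82 and 8.22. Of these, Il7r, Myc, Pim1, Pim2, Bcl6 and Cflar passed in no comparison.

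**Figure D4:**
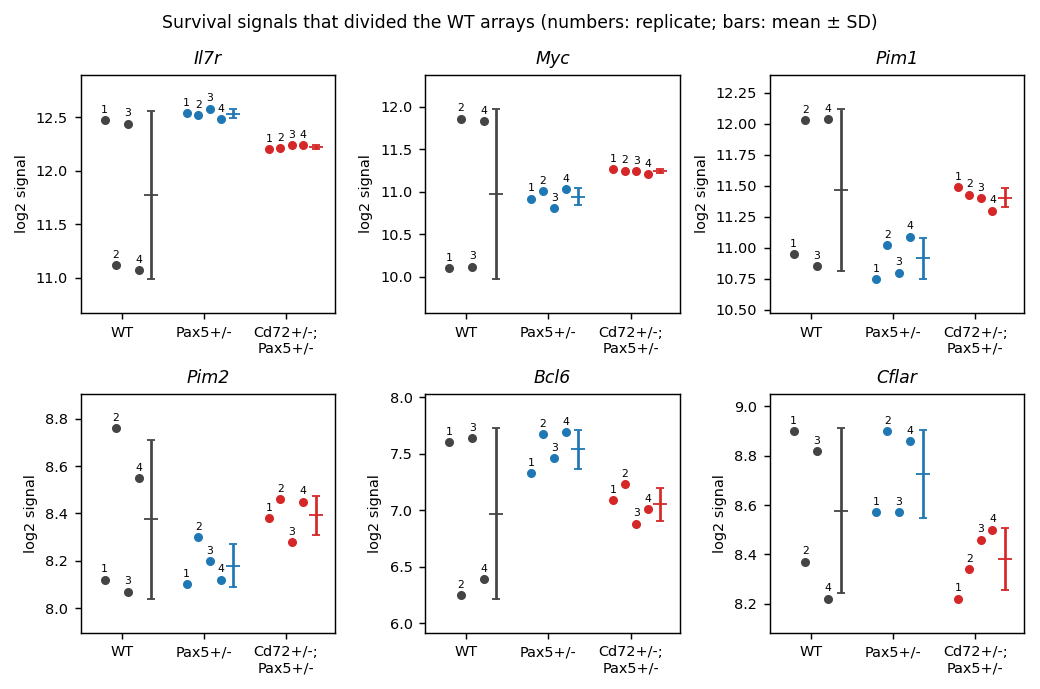
Log2 signal of 6 survival genes on all 12 arrays (points, numbered by replicate), with mean ± SD beside each group. On WT replicates 2 and 4, the arrays with high Bcl2, Myc, Pim1 and Pim2 were high and Il7r, Bcl6 and Cflar low.

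Markers of the cell type moved with that division. The mean log2 signal over 13 measured markers of pro-B and pre-B cells came to 11.82 and 11.86 for WT replicates 1 and 3, to 10.99 and 10.94 for replicates 2 and 4, and to 11.60 to 11.75 in Pax5+/- and 11.31 to 11.50 in Cd72+/-;Pax5+/-. Among them Rag1 read 11.83, 10.60, 11.82 and 10.71 in WT replicates 1 to 4. Dntt, which adds bases at joins of antibody gene segments, read 11.93, 9.76, 11.92 and 9.82 there, while Ebf1 and Cd79a differed by at most 0.28 among WT arrays. Dntt read 10.54 to 10.82 in Pax5+/- and 8.29 to 8.85 in Cd72+/-;Pax5+/-, below every other array. Rag1 was higher in Cd72+/-;Pax5+/- (11.56 to 11.69) than in Pax5+/- (11.24 to 11.42). The mean of the 7 measured of 9 mature B-cell markers came to 6.70 and 6.71 on the former WT arrays and 6.84 and 6.83 on the latter, a rise carried by Cxcr5 (6.30, 7.66, 6.02 and 7.16). Without Cxcr5 the mean of the other 6 was 6.77 and 6.82 on the former and 6.70 and 6.78 on the latter, and Ccr7 was lower by 0.37 on the log2 scale on the latter.

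Some markers of other cell types moved with the divisions and with the groups as well. Means over 15 stromal and endothelial markers were 7.83, 7.43, 7.84 and 7.46 in WT replicates 1 to 4 and 7.58, 7.01, 7.63 and 7.06 in Pax5+/-, the same division that Bid and Bmf showed there. In Cd72+/-;Pax5+/- they were 6.88 to 6.99, below every other array. Sparc, a matrix protein of stromal cells, read 10.71, 9.44, 10.63 and 9.40 in WT, 10.79, 8.70, 10.85 and 8.59 in Pax5+/- and 7.50 to 8.59 in Cd72+/-;Pax5+/-. Not every marker in the list followed. Alpl went the other way in WT, at 10.76, 11.34, 10.85 and 11.42, and Pecam1 in Pax5+/-, at 10.24, 10.54, 10.31 and 10.56. Alpl also weighs on the means of the groups, since it read 7.26 to 7.37 in Pax5+/- and 8.77 to 9.06 in Cd72+/-;Pax5+/-. Col1a1 read 10.41, 9.32, 10.36 and 9.33 in WT and 10.51, 8.69, 10.49 and 8.92 in Pax5+/-. Lepr, Kdr, Emcn, Cdh5 and Tek differed by at most 0.105 between the pair means of WT or of Pax5+/-. The 8 myeloid markers averaged 6.51, 6.16, 6.50 and 6.19 in WT, 6.36 to 6.41 in Pax5+/- and 6.38 to 6.42 in Cd72+/-;Pax5+/-. In WT, Lyz2, the lysozyme gene of macrophages, read 8.75, 7.17, 8.94 and 7.23, and Itgam 7.12, 6.08, 7.13 and 6.29. In Pax5+/- Itgam went the other way (7.21, 7.84, 7.22 and 7.92) and Lyz2 did not (7.80, 7.38, 7.67 and 7.24). Between the WT pair means Ly6g, Elane, Mpo, Csf1r and S100a8 differed by at most 0.08, and S100a9 by -0.24. The 4 NK-cell markers averaged 5.51 to 5.61 in Pax5+/-, above every other array (5.295 to 5.44). Among them only Nkg7 stood apart, at 6.79 to 7.23 in Pax5+/-, 6.12 to 6.70 in WT and 6.20 to 6.33 in Cd72+/-;Pax5+/-. Ncr1, Klrb1c and Gzma overlapped between the groups. The 7 measured of 8 T-cell markers averaged 6.09 to 6.28 over all arrays. The 3 measured of 6 erythroid markers averaged 8.29 to 8.45 in WT, 7.93 to 8.35 in Pax5+/- and 7.97 to 8.05 in Cd72+/-;Pax5+/-. Tfrc carried that difference, at 12.22 to 12.72, 11.28 to 12.14 and 11.34 to 11.56 in the same order. Klf1 overlapped between the groups, and Slc4a1 read 6.91 to 6.97, 6.99 to 7.08 and 6.87 to 7.10. The part of these differences in the values of the Bcl2 family members, within groups or between them, was not tested.

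Of the other family genes, 1 passed in 1 comparison. Of 16, 13 had a cluster of their own, and in Pax5+/- and Cd72+/-;Pax5+/- against WT limma called none of them at an adjusted p under 0.05, while 2 and 0 had an unadjusted p under 0.05, against 18% and 19.7% of all clusters. Between the heterozygous groups Bnip3l, a mitochondrial receptor of autophagy, was lower in Cd72+/-;Pax5+/- (10.17 ± 0.0638 against 10.71 ± 0.166, adjusted p = 0.0428), a call lost when any of 7 of the 8 arrays was left out, with the closest pairs averaged (adjusted p = 0.49) and with the pairs as a random block (adjusted p = 0.0639). The guardian copies Bcl2a1a to Bcl2a1d share 3 clusters that cannot tell them apart, at 5.34 to 5.69 on all arrays.

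Downstream, Casp6, an executioner caspase, was high in Pax5+/- alone. Of 18 measured caspases, apoptosome genes and inhibitors it was the only 1 called in Pax5+/- against WT, where it rose by 1.005, 2.01-fold (7.34, 6.86, 7.57 and 6.94 in WT, 8.51, 8.05, 8.11 and 8.06 in Pax5+/-, SE 0.153, limma adjusted p = 0.000979). It changed by -1.105 in Cd72+/-;Pax5+/- against Pax5+/-, 2.15-fold lower (adjusted p = 0.000382), and the groups did not overlap in either comparison. Both calls held without any single array, but not once closest pairs were averaged (adjusted p = 0.129 and 0.0828). Also lower in Cd72+/-;Pax5+/- than in Pax5+/- was Fadd, the adaptor of death receptors (-0.27, adjusted p = 0.0276), and higher was Birc5, a mitotic inhibitor of apoptosis (0.315, adjusted p = 0.0387). Dffb, the nuclease that cuts DNA in dying cells, was -0.23 from WT in Cd72+/-;Pax5+/-, a fall with an adjusted p of 0.0425. The calls of Fadd, Birc5 and Dffb were lost without 4, 6 and 7 of the 8 arrays, each left out in turn, and with the closest pairs averaged. Of the 18, limma called 1 in Pax5+/- against WT and 1 in Cd72+/-;Pax5+/- against WT, beside 7.47% and 7.78% of all clusters. Between the heterozygous groups it called 3, beside 9.79%. There 9 of the 18 did not overlap, all lower in Cd72+/-;Pax5+/-, beside 18.5% of all clusters in either direction. The median change there was -0.13 for the 18 and 0.005 for all clusters.

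Of 23 measured upstream genes none passed in Pax5+/- against WT with limma, and 9 had an unadjusted p under 0.05, against 18% of all clusters. In Cd72+/-;Pax5+/- against WT 3 rose and none fell, where 4.12% of all clusters rose and 7.78% were called. They were E2f1, a cell-cycle factor that can induce BH3-only genes, by 0.425 (adjusted p = 0.000708), Ddit3, which encodes the stress factor CHOP, by 0.31 (adjusted p = 0.0107), and the kinase gene Akt2 by 0.22 (adjusted p = 0.0292). E2f1 and Ddit3 were also higher than in Pax5+/-, by 0.37 and 0.51 (adjusted p = 0.00165 and 0.00020), and the 4 Cd72+/-;Pax5+/- arrays did not overlap with either group for these genes. Myb, a factor of lymphoid precursors, was lower than in Pax5+/- by 0.51 on the log2 scale (11.80 ± 0.0141 against 12.31 ± 0.0834, adjusted p = 0.039). With the closest pairs averaged none of these calls remained (adjusted p = 0.0636 to 0.486). The calls of E2f1 and Ddit3 held without any single array, while those of Akt2 and Myb were lost without 6 and 7 of the 8 arrays. Trp53, Jak3, Il2rg and Nfkb1 had no cluster of their own and were not analysed here.

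**Figure D5:**
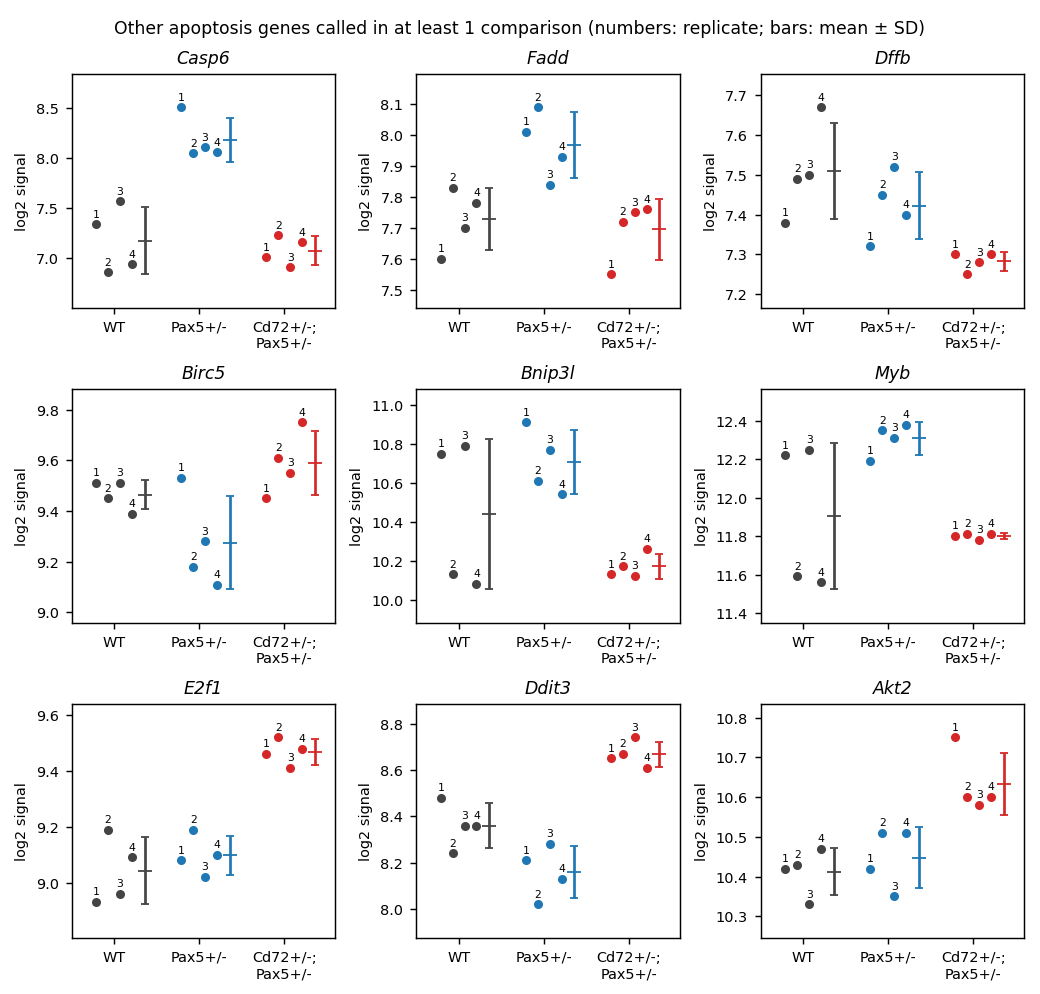
Log2 signal of the 9 further apoptosis genes called in at least 1 comparison, on all 12 arrays (points, numbered by replicate) with mean ± SD beside each group. Casp6 was highest on the 4 Pax5+/- arrays, and E2f1 and Ddit3 were highest on the 4 Cd72+/-;Pax5+/- arrays.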

How the data were processed

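Purified pro-B cells of the bone marrow gave the RNA for 12 arrays (Affymetrix Mouse Gene 1.0 ST), 4 per group. The authors deposited log2 values per transcript cluster, processed per the submitters' processing notes with Transcriptome Analysis Console 4.0.3. Its background correction and normalization: not given in the sources used here. Array medians were 6.91 to 7.005 and values 3.67 to 14.73, and no further normalization was applied. Precision is limited by the number of arrays.

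Of 28944 clusters, 21789 had 1 symbol in the platform annotation, 1621 several and 5534 none. The 23410 with a symbol were tested, and genes were named only from clusters with 1 symbol. limma 3.58.1 (R 4.3.3) fitted group means over all 3 groups (lmFit, contrasts, eBayes, 9 residual and 3.28 prior degrees of freedom). Benjamini-Hochberg adjustment covered all 23410 clusters, and called means an adjusted p under 0.05. The script was tested on simulated data. Single values allow an exact two-sided permutation p of 0.0286 at the smallest with 4 against 4.

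The members were set by symbol, and other genes are named where called, where a profile was among the 4 nearest, or, as stated, where they were picked with their values in view. Members, gene lists and tests were chosen with earlier results of these data known. Closest pairs of arrays were taken from the SD of differences over all tested clusters. The labels neither state nor exclude that they are repeat arrays. Alternatives were normalization, filter, prior, array weights, thresholds, paired arrays and arrays left out. Promoter windows came from RefSeq (GRCm38.p6), where 8 of the 9 measured members had 1 or more, and 4 had a window lying wholly before the gene.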

Additional observations from a re-analysis of the deposited data

How the results depend on the processing

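No paired analysis was possible because the labels number the arrays 1 to 12 without a number shared between groups. Each measured member had 1 cluster, so averaging clusters per gene gave no other value. Results below are in the order Pax5+/- against WT, Cd72+/-;Pax5+/- against WT, then Cd72+/-;Pax5+/- against Pax5+/-. Both settings that leave out 2 WT arrays were chosen after seeing the data, and the causes of the shifts were not tested beyond the fewer arrays or genes each setting uses. Bcl2, Bcl2l11, Bid and Bak1 were highest on WT replicates 2 and 4, so member counts in these settings follow from the arrays kept. All counts in these settings are a description with no test, and some stand without the count over all clusters. That count also changed between settings, so a count given without it is no result about the members or the lists.

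The count of clusters called was 224, 214 and 280 at the study's threshold, 282, 290 and 420 with closest pairs averaged, and 1133, 1031 and 1398 with the pairs as a random block (correlation 0.427). Against WT in Cd72+/-;Pax5+/- it was 2787 with array weights and 3645 without WT replicates 2 and 4, and in Pax5+/- 4184 without WT replicates 1 and 3. Leaving out single arrays gave 1338 to 2047, 1257 to 1954 and 1667 to 2622.

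The count of members called in Pax5+/- against WT was 1 with quantile normalization, a common median, only the 2 compared groups, array weights, the study's threshold, the random block, or without WT replicates 2 and 4, 0 with closest pairs averaged, 5 without WT replicates 1 and 3, and 1 to 3 with single arrays left out. In Cd72+/-;Pax5+/- against WT it was 0 with the filter on dim clusters (7 members tested), 1 at the study's threshold or with pairs averaged, 5 without WT replicates 1 and 3, and 2 to 3 with single arrays left out. Against Pax5+/- it was 2 with the filter, 0 at the study's threshold, 1 with pairs averaged, and 3 to 4 with single arrays left out. Among the members, with the random block Bcl2l11 in Pax5+/- against WT (adjusted p = 0.0561) and Bbc3 against Pax5+/- (0.168) lost their calls.

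Caspase counts in Pax5+/- against WT were 2 with weights or an adjusted p under 0.1, 0 with pairs averaged, 6 without WT replicates 1 and 3, 3 without 2 and 4, and 1 to 2 with single arrays left out. Against WT in Cd72+/-;Pax5+/- they were 0 with a common median, trend and robust prior, only 2 groups, the study's threshold, pairs averaged or the block, 2 with weights, 3 without WT replicates 2 and 4, and 0 to 1. Against Pax5+/- they were 1 at the study's threshold or with the block, 0 with pairs averaged, and 1 to 3. Other family genes numbered 1 with weights or an adjusted p under 0.1, 2 without WT replicates 1 and 3 and 0 to 1 in the first comparison, 2 without WT replicates 2 and 4 in the second, and 2 with weights, 0 at the study's threshold, with pairs averaged or the block, and 0 to 2 in the third. Upstream genes numbered 1 with weights, an adjusted p under 0.1 or without WT replicates 2 and 4, 9 without 1 and 3, and 0 to 2 in the first, 0 at the study's threshold or with pairs averaged, 1 with the block, 7 without WT replicates 1 and 3 and 12 without 2 and 4 in the second, and 8 with only 2 groups, 5 with an adjusted p under 0.1, and 0 at the study's threshold or with pairs averaged in the third.

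The sign turned for changes that had not been called. In Pax5+/- against WT, without WT replicates 2 and 4 the change was 0.0625 for Bak1, 0.0675 for Bid, -0.0925 for Bmf, -0.0925 for Mcl1 and -0.0025 for Pmaip1. Mcl1 was -0.0125 at a common median and -0.0251 with weights, and Pmaip1 -0.0143 with quantile normalization and -0.0125 at a common median. In Cd72+/-;Pax5+/- against WT, without WT replicates 2 and 4 it was 0.1525 for Bak1, -0.16 for Bcl2l1, 0.16 for Bid and -0.225 for Bmf, and without 1 and 3 it was -0.2575 for Bcl2l11 and 0.0275 for Mcl1. With weights it was 0.00705 for Bak1, -0.0333 for Bcl2l1 and -0.0756 for Bmf, and Bmf was -0.0234 with quantile normalization. With single arrays left out, in Cd72+/-;Pax5+/- against WT Bak1 ran from -0.1775 to 0.0025, Bcl2l1 from -0.0383 to 0.108 and Bmf from -0.0867 to 0.0933, and in Pax5+/- against WT Mcl1 ran from -0.0308 to 0.0425 and Pmaip1 from -0.0217 to 0.0283.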
